A study of Mus musculus with 12 samples.

Results

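The Lgr receptors and R-spondins form a small signalling module of 9 genes: the receptors Lgr4, Lgr5 and Lgr6, the secreted ligands Rspo1, Rspo2, Rspo3 and Rspo4, and the membrane E3 ubiquitin ligases Znrf3 and Rnf43. They were chosen by name, and each was read from the single-locus entry that carries its symbol, 9 of 20114 such entries in the deposited count table. RNA was sequenced from mammary epithelial cells (MECs) isolated by fluorescence-activated cell sorting from adult female mice aged 9 weeks, in 3 groups of 4 libraries. Recombined cells came from mT-mG/SmoM2;MMTV-Cre mice, carried the green EGFP reporter and were labelled SmoM2 positive. Unrecombined cells came from mice of the same genotype, kept the red tdTomato reporter and were labelled SmoM2 negative. Wild type cells came from mT-mG/SmoM2;+ mice, which carry the same reporter and SmoM2 alleles and no Cre. All were of a mixed 129X1/SvJ, C57BL/6 and Swiss Webster background. SmoM2 is an activated form of Smoothened, which transmits Hedgehog signals across the membrane. The Cre is driven by the MMTV promoter, so the recombined cells are those in which this promoter had been active. SmoM2, the reporter colour and Cre activity cannot be told apart in the comparisons of recombined cells, nor can a difference in the kinds of cells sorted. The labels do not name the animals behind each library, so p values measure the spread between these libraries.

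R-spondins are secreted proteins that strengthen the response of a cell to Wnt ligands. Znrf3 and Rnf43 mark Frizzled, the Wnt receptor, for removal from the cell surface, and an R-spondin that bridges one of them to an Lgr receptor clears the ligase and leaves Frizzled in place. Lgr5, Znrf3, Rnf43 and Axin2 are themselves known targets of Wnt and beta-catenin signalling, so that the ligases act as feedback inhibitors. In the mammary gland Lgr5 and Lgr6 mark subsets of epithelial cells, and R-spondin 1 acts with Wnt4 on basal stem cells downstream of progesterone.

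RefSeq promoter sequence was at hand for 5 of the 9 members. Lgr4 and Lgr6 are shown because their profiles across libraries were the closest of any pair of members, and Rspo1 because its profile was unlike theirs. Each is the 250 bases before the annotated start, 5′ to 3′ on the gene's own strand, on the build GRCm38.p6, which is not the mm9 build of the counts. Capitals mark matches to a CCAAT box (CCAAT or ATTGG), an octamer (ATGCAAAT or ATTTGCAT) or a GC box (GGGCGG or CCGCCC), none of which overlap.
Lgr4, chr2:109917397-109917646, plus strand: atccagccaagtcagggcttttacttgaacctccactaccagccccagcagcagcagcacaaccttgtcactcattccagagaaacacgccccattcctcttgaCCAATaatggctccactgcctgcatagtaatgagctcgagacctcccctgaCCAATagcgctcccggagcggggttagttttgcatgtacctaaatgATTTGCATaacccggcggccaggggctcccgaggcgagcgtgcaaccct
Lgr6, chr1:135105277-135105526, minus strand: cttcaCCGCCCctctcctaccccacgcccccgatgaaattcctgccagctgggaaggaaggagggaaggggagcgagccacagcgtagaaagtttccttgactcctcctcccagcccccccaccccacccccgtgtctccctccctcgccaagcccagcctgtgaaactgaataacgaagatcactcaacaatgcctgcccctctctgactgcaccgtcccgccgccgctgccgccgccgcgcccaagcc
Rspo1, chr4:124986180-124986429, plus strand: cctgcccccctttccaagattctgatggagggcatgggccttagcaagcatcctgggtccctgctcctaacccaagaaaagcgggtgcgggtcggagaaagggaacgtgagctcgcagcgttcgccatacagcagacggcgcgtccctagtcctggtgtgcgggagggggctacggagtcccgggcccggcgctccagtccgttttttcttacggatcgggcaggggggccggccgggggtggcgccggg
The Lgr4 promoter held 2 CCAAT boxes, which begin 146 and 95 bases before the start, and an octamer that begins 49 bases before it. Of 32851 mouse promoters of the same length, 33.8% held a CCAAT box, 10.1% held 2 or more and 1.60% held the octamer. The Lgr6 promoter held a GC box 245 bases before the start, a match found in 32.7% of promoters. The Rspo1 window held none of these. The TCF/LEF core CTTTGA (13.8% of promoters) and the GLI site GACCACCCA (0.225%), searched on both strands, were not in the windows of Lgr4, Lgr6, Rspo1, Rspo4 or Rnf43. The CCAAT, octamer and GC box motifs were picked after the sequences had been read, and a match is a description of letters only.

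Libraries held between 19569509 and 34744267 counts in single-locus entries, which sets a floor of 3 counts at 0.0863 to 0.153 CPM, counts scaled to library size. Of 14039 loci with enough counts to test, 920 (6.55%) changed in recombined against wild type cells, 733 (5.22%) in recombined against unrecombined cells and 0 in unrecombined against wild type cells (edgeR quasi-likelihood test, Benjamini-Hochberg adjusted p under 0.05). Hedgehog genes were higher in the libraries labelled recombined: Smo, whose entry also names AK053708, had a log2 fold change of 1.04 in recombined against wild type cells (adjusted p = 0.0115), Ptch1 of 3.58 (adjusted p = 0.000427) and Hhip of 3.66 (adjusted p = 0.0012). Recombined libraries 3 and 4 stood apart from the rest along the leading principal component (31.4% of the variance). Genes of the salivary gland list summed to 663 CPM or more in recombined libraries 1 and 2, unrecombined libraries 1 and 2 and wild type library 2, and to 72.2 CPM or less in the other 7. Transcripts of basal, luminal, fibroblast and other listed cell types were counted in all libraries.

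All 3 Lgr receptors were 3.35- to 4.34-fold higher in recombined cells than in either of the other groups, while the R-spondins that could be tested did not pass the test. The libraries of recombined cells did not overlap with those of either other group for these receptors, which 6.33% of all loci also showed against wild type cells and 5.57% against unrecombined cells. Recombined against wild type, 4 of the 9 members passed the test as higher (Lgr4, Lgr5, Lgr6 and Rnf43) and 0 as lower, against 4.17% of all loci tested that were higher and 2.38% that were lower. Recombined against unrecombined, 3 of the 9 were higher (Lgr4, Lgr5 and Lgr6) and 0 lower, against 3.08% and 2.14% of all loci. Enough counts for the test were present for 7 members: the 3 receptors, both ligases, Rspo1 and Rspo3. Rspo2 and Rspo4 were too low to test. The 2 comparisons share the recombined libraries, so they are not independent.

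**Figure D1:**
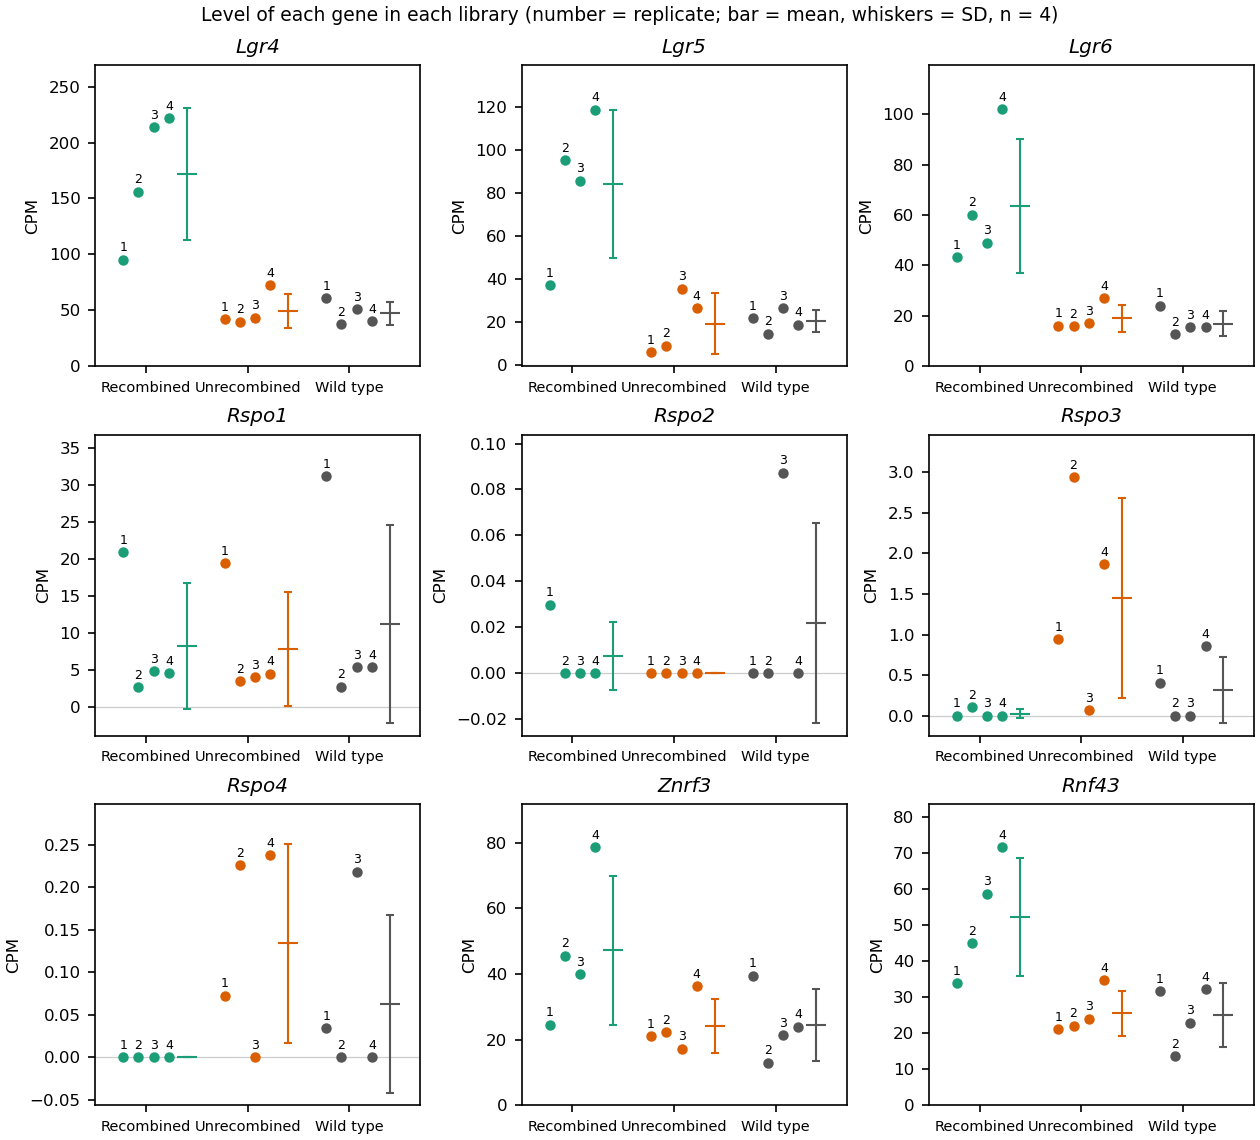
Level of each of the 9 genes (y axis, CPM with TMM scaling) in each library, by group (x axis). Points are libraries with their replicate number, and the bar and whiskers are the mean and SD of 4 libraries. All recombined libraries lie above all others for Lgr4, Lgr5 and Lgr6, and replicate 1 lies far above the rest of each group for Rspo1.

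Lgr4 (mm9 chromosome 2, start 109757803) is the most widely expressed receptor of the family. It measured 95.2, 156, 214 and 222 CPM in recombined libraries 1 to 4, against 42.2, 39.7, 43.2 and 72.2 CPM in unrecombined libraries and 60.5, 37.9, 50.9 and 40.4 CPM in wild type libraries. The lowest recombined library lay above the highest library of the other groups, and libraries 3 and 4, which stood apart across the transcriptome, were the highest. Lgr4 rose 3.62-fold against wild type cells (log2 1.86 ± 0.279 SE, adjusted p = 0.00148) and 3.48-fold against unrecombined cells (log2 1.80 ± 0.278, adjusted p = 0.00145, edgeR quasi-likelihood test).

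Lgr5 (chromosome 10, start 114887369), best known as a marker of stem cells in intestine and hair follicle, is itself a Wnt target. It measured 37.1, 95.1, 85.8 and 119 CPM in recombined libraries, against 6.19, 9.23, 35.7 and 26.4 CPM in unrecombined libraries and 22.04, 14.7, 26.7 and 19.0 CPM in wild type libraries. The groups did not overlap, but recombined library 1 was only slightly above unrecombined library 3, and unrecombined libraries 1 and 2 were well below libraries 3 and 4. Lgr5 rose 4.08-fold against wild type cells (log2 2.03 ± 0.494 SE, adjusted p = 0.0248) and 4.34-fold against unrecombined cells (log2 2.12 ± 0.495, adjusted p = 0.0225, edgeR quasi-likelihood test). The call against wild type cells was lost when recombined library 3 or 4 or any wild type library was left out (adjusted p 0.0509 to 0.0818). That against unrecombined cells was lost without recombined library 3 or 4 or unrecombined library 2 (adjusted p 0.0617 to 0.0717). It was also lost with only the 2 groups compared (log2 2.12, adjusted p = 0.0607). The log2 fold change stayed between 1.82 and 2.59 over all libraries left out in turn in both comparisons.

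Lgr6 (chromosome 1, start 136882929), a marker of stem cells in skin, measured 43.3, 60.1, 49.0 and 102 CPM in recombined libraries, against 16.04, 15.9, 17.0 and 27.1 CPM in unrecombined libraries and 23.98, 12.7, 15.4 and 15.6 CPM in wild type libraries. As for Lgr4, recombined library 1 was the lowest and library 4 the highest of the recombined group, and no library of another group reached that lowest value. Lgr6 rose 3.76-fold against wild type cells (log2 1.91 ± 0.305 SE, adjusted p = 0.00219) and 3.35-fold against unrecombined cells (log2 1.74 ± 0.303, adjusted p = 0.00338, edgeR quasi-likelihood test).

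The 3 receptors kept their direction without the recombined libraries that stood apart and within each series of library numbers in the labels (numbers that begin with 23 or 24, whose meaning the labels do not give). With recombined libraries 3 and 4 both left out, Lgr4 and Lgr6 stayed past the threshold in both comparisons, whereas Lgr5 did not (log2 1.68, adjusted p = 0.259 against wild type cells and log2 1.77, adjusted p = 0.266 against unrecombined cells). Among libraries of series 23 alone, recombined against wild type log2 fold changes were 1.34 for Lgr4, 1.66 for Lgr5 and 1.58 for Lgr6. Among those of series 24, with 1 wild type library, they were 2.44, 2.44 and 2.30 in the same order. None of these within-series values passed the test (adjusted p 0.0845 to 0.311), in fits that called 75 and 17 loci in all, and in series 24 the lone wild type library is assumed to vary like the other groups. Recombined against unrecombined, the values in series 23 and series 24 were 1.63 and 1.91 for Lgr4, 3.12 and 1.72 for Lgr5 and 1.71 and 1.78 for Lgr6, of which that of Lgr5 in series 23 passed the test.

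Basal and myoepithelial markers were also higher in recombined libraries, with an order within groups that matched the receptors in part. The 15 listed basal genes summed to 2125, 5132, 5349 and 8459 CPM in recombined libraries 1 to 4, against 772 to 1461 CPM in unrecombined libraries and 1013 to 1321 CPM in wild type libraries, and none of them was at 0 in every library. Of all loci, 4.17% were higher and 2.38% lower against wild type cells, and 3.08% and 2.14% against unrecombined cells. Of the 15 basal genes, 12 rose and 0 fell against wild type cells (median log2 2.26, against -0.02 over all loci tested). Against unrecombined cells 13 rose and 1, Vim, fell (median 2.48, against -0.01). Among them were Krt14 (log2 2.86, adjusted p = 0.00259 against wild type cells) and Krt5 (log2 3.34, adjusted p = 0.009), the keratins of the basal layer, and Trp63 (log2 3.25, adjusted p = 0.00139), its defining transcription factor. Without recombined libraries 3 and 4, fewer passed the test (2 higher against wild type cells, and 5 higher and 1 lower against unrecombined cells), while 14 of the 15 log2 fold changes were above 0 in each comparison, with medians of 1.92 and 2.16. Recombined library 1 had the lowest basal sum and the lowest level of all 3 receptors in its group, and library 4 had the highest of each. Lgr5 (95.1 and 85.8 CPM) and Lgr6 (60.1 and 49.0 CPM) were higher in recombined library 2 than in library 3, against the order of the basal sums. Among unrecombined libraries, library 3 had the lowest basal sum (772 CPM) and the highest Lgr5 level (35.7 CPM). Unrecombined library 2 had the highest basal sum (1461 CPM) with 9.23 CPM of Lgr5. The summed level of 12 hormone-sensing luminal markers went the other way, at 683 to 1869 CPM in recombined, 2689 to 4463 CPM in unrecombined and 3213 to 6056 CPM in wild type libraries. Other luminal lists overlapped between groups. Luminal progenitor markers (11 genes) summed to 2440 to 7513 CPM in recombined, 4392 to 8694 CPM in unrecombined and 2901 to 4801 CPM in wild type libraries. Pan-luminal markers (8 genes) summed to 1377 to 3067, 2425 to 4326 and 2811 to 4671 CPM in the same order. The part of these cell kinds in the receptor differences was not tested, and in bulk RNA fewer cells of a type and less RNA per cell cannot be told apart.

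**Figure D2:**
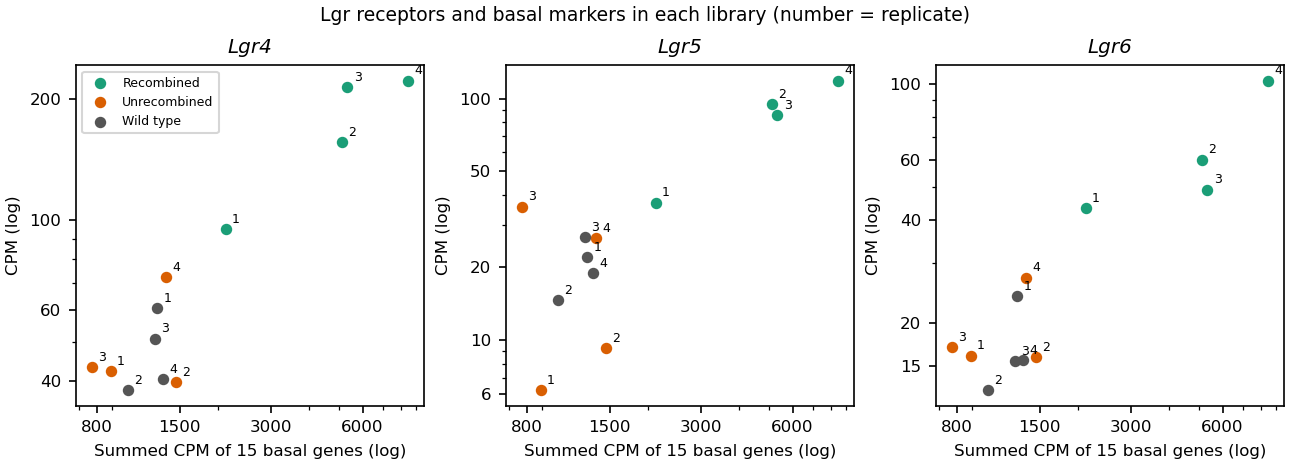
Level of Lgr4, Lgr5 and Lgr6 (y axis, CPM, log scale) against the summed level of 15 basal and myoepithelial genes (x axis, CPM, log scale) in each of the 12 libraries, numbered by replicate. The recombined libraries lie at 2125 to 8459 CPM of the basal sum and the others at 772 to 1461 CPM, and no other library is as high as the lowest recombined one in any panel.

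Of the E3 ligases that R-spondins counteract, Rnf43 passed the test in 1 of 2 comparisons of recombined cells and Znrf3 in neither. Rnf43 (chromosome 11, start 87476223) measured 34.0, 45.1, 58.8 and 71.8 CPM in recombined libraries, against 21.1, 22.1, 24.1 and 34.7 CPM in unrecombined libraries and 31.6, 13.5, 22.9 and 32.3 CPM in wild type libraries. Recombined library 1 lay just above the wild type range and within the unrecombined one. Rnf43 passed the test narrowly against wild type cells (2.09-fold, log2 1.06 ± 0.299 SE, adjusted p = 0.0497) and did not pass against unrecombined cells (2.06-fold, log2 1.04 ± 0.299, adjusted p = 0.0626, edgeR quasi-likelihood test). With the replicate number as a block, which pairs recombined and unrecombined libraries, its adjusted p against unrecombined cells was 0.0256. The wild type call was lost with 11 of the 12 libraries left out in turn, the exception being recombined library 1 (log2 0.86 to 1.22, adjusted p 0.0224 to 0.133), and with recombined libraries 3 and 4 both left out (log2 0.65, adjusted p = 0.460). In all it was lost under 21 of 27 alternatives, among them upper quartile scaling (adjusted p = 0.0716), limma-voom (0.0599) and only the groups compared (0.0954), with an adjusted p up to 0.564.

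Znrf3 (chromosome 11, start 5176331) measured 24.5, 45.6, 40.003 and 78.7 CPM in recombined libraries, against 21.0, 22.3, 17.3 and 36.2 CPM in unrecombined libraries and 39.5, 13.0, 21.4 and 23.9 CPM in wild type libraries. Its groups overlapped in both comparisons, and recombined library 4 was far above the rest. Its log2 fold change was 0.95 ± 0.379 against wild type cells (95% interval 0.14 to 1.76, adjusted p = 0.171) and 0.96 ± 0.379 against unrecombined cells (0.15 to 1.78, adjusted p = 0.184, edgeR quasi-likelihood test). Neither passed the test, and an increase of the size seen for Rnf43 lies within both intervals. Within each replicate number the recombined library was above the unrecombined one. With this number as a block, the adjusted p against unrecombined cells was 0.127 (edgeR quasi-likelihood test). It was 0.0430 when only these 2 groups were fitted with the block, a setting chosen after seeing the data.

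**Figure D3:**
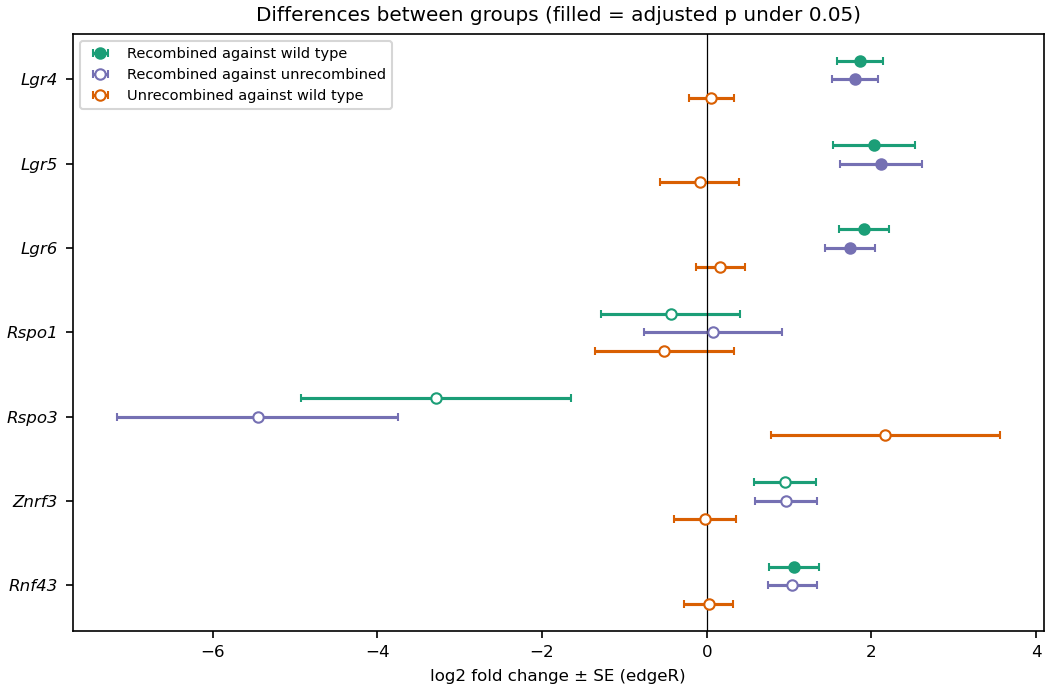
Log2 fold change (x axis) with its SE from the edgeR quasi-likelihood test for the 7 genes with enough counts, in recombined against wild type, recombined against unrecombined and unrecombined against wild type cells. Filled points have an adjusted p under 0.05. The 3 receptors lie between 1.74 and 2.12 in both comparisons of recombined cells, the ligases between 0.95 and 1.06, and the R-spondins have wide errors.

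Among the ligands, Rspo1 (chromosome 4, start 124663673) was the only one above the count floor in every library. Its levels differed by replicate number more than by group. It measured 20.8, 2.60, 4.85 and 4.58 CPM in recombined libraries 1 to 4, against 19.4, 3.47, 3.95 and 4.48 CPM in unrecombined libraries and 31.1, 2.71, 5.37 and 5.38 CPM in wild type libraries. Library 1 was the highest in each group, and the other libraries of all groups lay between 2.60 and 5.38 CPM. No difference passed the test. The log2 fold change was -0.44 ± 0.840 against wild type cells (95% interval -2.25 to 1.37, adjusted p = 0.827) and 0.08 ± 0.840 against unrecombined cells (-1.73 to 1.88, adjusted p = 0.976, edgeR quasi-likelihood test). A 2-fold change in either direction lies within both intervals. With the replicate number as a block the values were -0.27 against wild type cells (adjusted p = 0.613) and -0.00448 against unrecombined cells (adjusted p = 0.996). Within each number the recombined library was lower than the wild type one, but wild type libraries did not meet the bar for pairing by number. With recombined library 1 left out the first value was -1.48, and without wild type library 1 it was 0.88.

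Of the 8 listed genes of the progesterone pathway that acts through R-spondin 1, a pair shared the high level in libraries numbered 1. Tnfsf11, which encodes the RANK ligand and can also bind Lgr4, measured 2.42, 0.0367, 0.0538 and 1.69 CPM in recombined, 4.998, 0.603, 0 and 0.747 CPM in unrecombined and 7.80, 1.39, 0.436 and 0.860 CPM in wild type libraries. Calca, which encodes calcitonin and is induced by progesterone in the gland, measured 4.21, 0.0367, 0 and 0.0412 CPM in recombined, 11.95, 0, 0 and 0.306 CPM in unrecombined and 23.5, 1.35, 0.349 and 0 CPM in wild type libraries. Both were highest in library 1 of every group. Pgr, the progesterone receptor, did not share the pattern, and its highest level in each group was in library 2 (128 CPM recombined, 234 CPM unrecombined and 343 CPM wild type). Of the 8 genes, Cxcl12 rose (log2 1.18, adjusted p = 0.0436) and Areg fell (log2 -1.86, adjusted p = 0.0235) in recombined against wild type cells, and 0 changed against unrecombined cells. Of all loci, 4.17% were higher and 2.38% lower against wild type cells, and 5.22% changed against unrecombined cells. Without recombined libraries 3 and 4 neither Cxcl12 (log2 0.81) nor Areg (log2 -1.37) passed the test. With each of the 12 libraries left out in turn, Cxcl12 lost its call 9 times (adjusted p up to 0.127, edgeR quasi-likelihood test). Areg lost its call 4 times (adjusted p up to 0.0756). Cxcl12 also lost it with upper quartile scaling, limma-voom and only the groups compared.

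**Figure D4:**
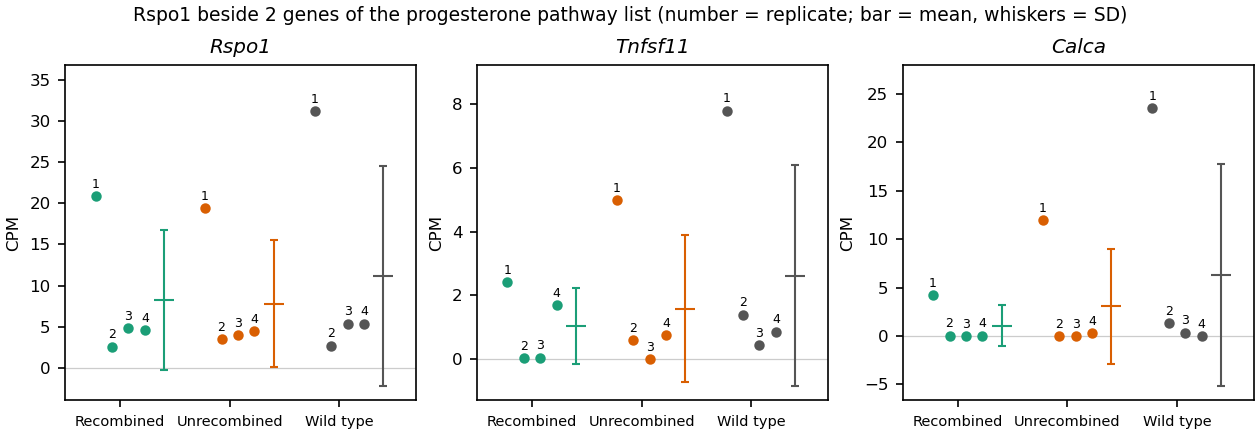
Level of Rspo1, Tnfsf11 and Calca (y axis, CPM) in each library by group (x axis), with the replicate number beside each point and the mean and SD of 4 libraries. Replicate 1 is the highest library of every group in all 3 panels, for Rspo1 at 20.8, 19.4 and 31.1 CPM.

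Rspo3 (chromosome 10, start 29172912), a ligand known from stromal cells, had 0, 3, 0 and 0 counts in recombined libraries, against 26, 78, 2 and 55 in unrecombined libraries and 12, 0, 0 and 24 in wild type libraries. It was at or below the floor in every recombined library and in unrecombined library 3 and wild type libraries 2 and 3. Summed over libraries and set against their totals, the recombined level was 0.0200 of the unrecombined one (exact 95% interval 0.00408 to 0.0595) and 0.0800 of the wild type one (0.0158 to 0.253), while the unrecombined level was 4.00 times the wild type one (2.77 to 5.91). These intervals cover counting error only. In the fit across libraries no difference passed the test (log2 -5.45 ± 1.71, adjusted p = 0.0888 against unrecombined cells and -3.29 ± 1.64, adjusted p = 0.280 against wild type cells, edgeR quasi-likelihood test). The DESeq2 Wald test gave an adjusted p of 0.0210 against unrecombined cells. Over the remaining alternatives this adjusted p lay above the threshold, up to 0.581.

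Fibroblast markers had the same order of groups as Rspo3. The 14 listed genes summed to 445 to 1109 CPM in recombined, 7074 to 9705 CPM in unrecombined and 2156 to 4566 CPM in wild type libraries. Of all loci, 2.14% were lower against unrecombined cells and 2.38% against wild type cells. Of the 14 genes, 12 fell against unrecombined cells and 11 against wild type cells. None was at 0 in every library. Within groups the order differed, since unrecombined library 3, with 2 Rspo3 counts, had a fibroblast sum of 9590 CPM. The part of fibroblast RNA in the Rspo3 difference was not tested.

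Rspo4 had 0 counts in all recombined libraries, against 2, 6, 0 and 7 in unrecombined libraries and 1, 0, 5 and 0 in wild type libraries. Rspo2 had 1 count in recombined library 1, 0 in all unrecombined libraries and 2 in wild type library 3. Both ligands sat near the floor, and no fold change is given for them.

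Unrecombined and wild type cells did not differ in any member or any gene of the pathway lists by the test, in a comparison in which 0% of all loci passed it. At an unadjusted p under 0.05, 541 loci (3.85%) and 0 of the 9 members differed, and the DESeq2 Wald test called 78 loci and limma-voom 18, with none of the members among them. Log2 fold changes were 0.06 for Lgr4 (95% interval -0.52 to 0.64), -0.09 for Lgr5 (-1.11 to 0.94) and 0.17 for Lgr6 (-0.47 to 0.80). For the ligases they were -0.02 for Znrf3 (-0.82 to 0.79) and 0.02 for Rnf43 (-0.61 to 0.66). A 2-fold difference in either direction lies outside the intervals of Lgr4, Lgr6, Znrf3 and Rnf43, and a 2-fold lower level lies inside that of Lgr5. For Rspo3 the value was 2.17 (-0.81 to 5.15) and for Rspo1 -0.51 (-2.32 to 1.30).

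Per kilobase of exon, Lgr4 had the highest mean of the members in every group, at 29.2 ± 9.99 CPM per kb in recombined, 8.39 ± 2.60 in unrecombined and 8.06 ± 1.77 in wild type cells (SD, n = 4). In recombined cells Lgr6 (9.29 ± 3.89), Lgr5 (8.20 ± 3.34), Rnf43 (7.99 ± 2.50), Znrf3 (5.98 ± 2.89) and Rspo1 (4.24 ± 4.37) followed, and each of these 5 differed from its neighbour by less than the larger of their SDs. In unrecombined cells the order after Lgr4 was Rspo1 (4.03 ± 3.98), Rnf43 (3.89 ± 0.956), Znrf3 (3.06 ± 1.05), Lgr6 (2.77 ± 0.794) and Lgr5 (1.89 ± 1.37). In wild type cells the order after Lgr4 was Rspo1 (5.75 ± 6.91), Rnf43 (3.83 ± 1.34), Znrf3 (3.098 ± 1.40), Lgr6 (2.47 ± 0.713) and Lgr5 (2.01 ± 0.494), and in both groups neighbours among these 5 differed by less than the larger of their SDs. Rspo3 came after all of these, at 0.00890 ± 0.0178 CPM per kb in recombined, 0.471 ± 0.399 in unrecombined and 0.103 ± 0.133 in wild type cells. The place of Rspo1 rests on library 1: over libraries 2 to 4 it averaged 2.07 ± 0.632 CPM per kb in recombined, 2.05 ± 0.262 in unrecombined and 2.31 ± 0.793 in wild type cells (SD, n = 3). The means of the other members include library 1, so these values were not ranked against them.

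Likeness of profiles was measured as the root mean square difference of centred log2 CPM over the 12 libraries, smaller values meaning more alike. It was searched among 7117 loci whose mean log2 CPM was 2 or more. Entries that join several symbols and repeat entries of a symbol were left out of the search. The nearest loci to Lgr4 were Fzd7 (0.166), a Frizzled receptor, Ptprs (0.251) and Lgr6 (0.258), where the median locus was at 1.01. Lgr6 was in turn nearest to Lgr4 (0.258), then Sema6d (0.270) and Pvrl1 (0.302). Znrf3 was nearest to Pdlim4 (0.187), to the other ligase Rnf43 (0.271) and to Fzd3 (0.283), and Rnf43 to Spred2 (0.199), Cxcr7 (0.240) and Nynrin (0.260). Lgr5 had looser matches, among them 5730559C18Rik (0.461) and Fam101b (0.562). So had Rspo1, in Ogfrl1 (0.579), Slc26a9 (0.688) and C3 (0.732). For Rspo3, near the floor in most libraries, Mrc2 (1.26), Igfbp4 (1.31) and Col5a2 (1.33), the last a fibrillar collagen chain, came nearest among 7118 loci. All these measures share the same libraries, and groups that differ pull many loci together, so they carry no p.

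The Frizzled receptors that the ligases act on rose in part. Of 12 listed Frizzled and Lrp genes, 11 were tested, 3 were higher and 0 lower against wild type cells (median log2 0.67), and 2 were higher and 0 lower against unrecombined cells (median 0.80). Of all loci, 4.17% were higher and 2.38% lower against wild type cells, and 3.08% and 2.14% against unrecombined cells. Without recombined libraries 3 and 4 the medians were 0.21 and 0.20. Fzd7, the Frizzled of basal mammary cells, measured 215, 309, 507 and 551 CPM in recombined libraries, against 77.2, 77.3, 77.4 and 127 CPM in unrecombined libraries and 130, 88.6, 103 and 94.4 CPM in wild type libraries. It did not overlap with either group and rose by log2 1.93 ± 0.281 (adjusted p = 0.0012) and 2.14 ± 0.283 (adjusted p = 0.000466, edgeR quasi-likelihood test). Fzd1 rose by log2 2.56 against wild type cells (adjusted p = 0.000284) and 1.42 against unrecombined cells (adjusted p = 0.0104), and Fzd3 by 1.29 against wild type cells (adjusted p = 0.0206). Without recombined libraries 3 and 4, Fzd7 and Fzd1 kept their wild type calls, Fzd7 alone kept its call against unrecombined cells, and Fzd3 lost its call (log2 0.78, adjusted p = 0.186). The co-receptors Lrp5 (log2 0.67, adjusted p = 0.112) and Lrp6 (0.34, adjusted p = 0.350) did not pass the test against wild type cells.

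Downstream, of 16 listed beta-catenin targets 12 were tested. Against wild type cells 3 were higher and 0 lower (median log2 0.97), where 4.17% of all loci were higher and 2.38% lower. Against unrecombined cells 1 was higher and 0 lower (median 0.72), where 3.08% of all loci were higher and 2.14% lower. Nkd1, a feedback inhibitor of Wnt signalling, measured 5.70, 20.2, 22.6 and 40.4 CPM in recombined libraries, against 2.28, 5.01, 3.92 and 7.27 CPM in unrecombined libraries and 4.599, 3.87, 3.80 and 4.30 CPM in wild type libraries. Recombined library 1 was close to the others, and the remaining 3 were well above them. Nkd1 rose by log2 2.42 ± 0.494 against wild type cells (adjusted p = 0.0099) and 2.26 ± 0.490 against unrecombined cells (adjusted p = 0.0142, edgeR quasi-likelihood test). Nkd2 (log2 2.20, adjusted p = 0.00984) and Cd44 (1.38, adjusted p = 0.0294) rose against wild type cells. None of these passed the test against wild type cells without recombined libraries 3 and 4, where log2 fold changes were 1.65 for Nkd1, 1.60 for Nkd2 and 1.06 for Cd44 (adjusted p 0.0967 to 0.270), nor did Nkd1 against unrecombined cells (adjusted p = 0.215). Axin2, the most general target, measured 2.96, 9.27, 16.3 and 28.7 CPM in recombined libraries, against 5.14, 5.01, 1.47 and 4.79 CPM in unrecombined libraries and 6.03, 0.387, 2.71 and 5.23 CPM in wild type libraries, and did not pass the test (log2 1.99 ± 0.747, adjusted p = 0.144 against wild type cells). Its recombined library 1 lay within the range of the other groups.

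Of 19 listed Wnt ligands, 11 were tested, 0 rose and 1, Wnt2, fell in both comparisons of recombined cells. Of all loci, 4.17% were higher and 2.38% lower against wild type cells, and 3.08% and 2.14% against unrecombined cells. Wnt2 had 0 counts in all recombined libraries, against 124 in all in unrecombined libraries and 63 in wild type libraries. That was at least 38.5-fold lower than in unrecombined cells and at least 21.9-fold lower than in wild type cells, taking 3 counts over the group as the floor (adjusted p = 0.0236 and 0.0372, edgeR quasi-likelihood test). The call against wild type cells was lost with 11 of the 12 libraries left out in turn, the exception being wild type library 2, with an adjusted p up to 0.0978. That against unrecombined cells was lost without recombined library 4 or unrecombined library 3 or 4, with an adjusted p up to 0.0604. Wnt2 had the same order of groups as the fibroblast sum above, and its part was not tested. In either direction, 6.55% of all loci changed against wild type cells and 5.22% against unrecombined cells. Of the 10 Dishevelled and destruction complex genes tested, 0 changed. The smallest p values were those of Gsk3a (log2 0.79, adjusted p = 0.0604), Dvl3 (0.74, adjusted p = 0.129) and Apc (-0.33, adjusted p = 0.240) against wild type cells.

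Of 7 other binding partners of Lgr4 and the R-spondins, 6 were tested. Against wild type cells 4.17% of all loci were higher, and 3.08% against unrecombined cells. Among the 6 partners, Tnfrsf11a was higher in both comparisons. This gene encodes RANK, the receptor that competes with Lgr4 for the RANK ligand. It measured 49.4, 65.2, 80.6 and 62.5 CPM in recombined libraries, against 37.6, 25.1, 28.9 and 42.6 CPM in unrecombined libraries and 40.5, 44.9, 36.5 and 33.6 CPM in wild type libraries. The groups did not overlap. It rose by log2 0.94 against unrecombined cells (adjusted p = 0.0152) and, narrowly past the threshold, 0.73 against wild type cells (adjusted p = 0.0495, edgeR quasi-likelihood test). Both calls were lost without recombined libraries 3 and 4 (log2 0.77 and 0.55, adjusted p = 0.169 and 0.349) and in the libraries without salivary transcripts. The wild type call was also lost 9 times with each of the 12 libraries left out in turn. Upper quartile scaling, limma-voom, the other filters, only the groups compared, the replicate block and the number series as covariate lost it too. The call against unrecombined cells was lost without unrecombined library 2 or 3. Of the 5 other leucine-rich repeat hormone receptors on the list, relatives of the Lgr proteins, 4 had a single-locus entry. None of these had enough counts.

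Of 12 listed mammary stem cell markers, 3 were higher and 1 lower against wild type cells (median log2 0.14). Of all loci, 4.17% were higher and 2.38% lower. Against unrecombined cells 4 markers were higher and 1 lower (median 0.13), where 3.08% of all loci were higher and 2.14% lower. Those that rose in both were Id4, whose entry also names AK039372 and AK034282 (log2 2.32, adjusted p = 0.00465 against wild type cells), Snai2 (2.55, adjusted p = 0.00519) and Bcl11b (3.59, adjusted p = 0.0105), which are transcriptional regulators of basal cells. Itga6 rose against unrecombined cells (0.63, adjusted p = 0.0241), and Prom1, found on luminal cells, fell in both (-1.62, adjusted p = 0.0277 against wild type cells). Procr, a surface marker of a mammary stem cell population, did not pass the test (-0.56, adjusted p = 0.569). Without recombined libraries 3 and 4, Id4 alone kept its call, at log2 2.35 against wild type cells, and Snai2 (2.35, adjusted p = 0.0641) and Bcl11b (2.99, adjusted p = 0.107) did not pass. In the 7 libraries without salivary transcripts Id4 lost its call in both comparisons.

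**Figure D5:**
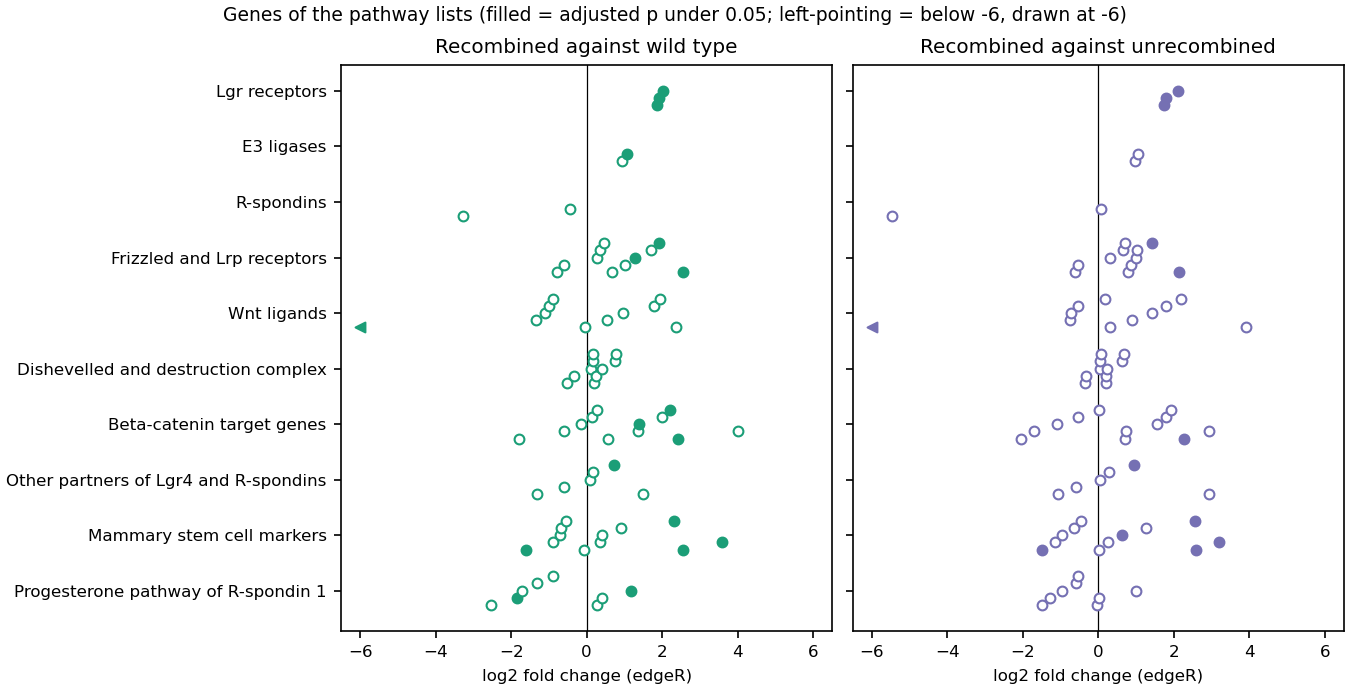
Log2 fold change (x axis, edgeR) of each tested gene of the Lgr, ligase and R-spondin groups and of 7 pathway lists (rows), in recombined against wild type cells (left) and recombined against unrecombined cells (right). Filled points have an adjusted p under 0.05. All 3 receptors are filled in both panels, while the Dishevelled and destruction complex row has 0 filled points.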

How the data were processed

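RNA was measured by sequencing in 12 libraries. STAR, HTSeq 0.3.1 and the build mm9 are named in the submitters' processing notes. The annotation and strand setting are not given in the sources used here, so antisense reads cannot be told apart. The values the authors deposited are raw counts of reads, whole numbers with a different total in each library. The table has 36635 entries. The 20114 that name 1 locus were used. The 16521 that name several loci held 0.0617% to 0.101% of a library's counts and were left out.

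The members and gene lists were chosen with earlier results of these data known. The main test was edgeR 4.0.16 (R 4.3.3), by quasi-likelihood on TMM-scaled counts (filterByExpr, robust fit, all 12 libraries in 1 fit, two-sided, Benjamini-Hochberg adjustment over 14039 loci, threshold 0.05). Intervals are 95% intervals. Per-kilobase levels used exon lengths of GENCODE M21 by symbol. Profile likeness used log2 CPM with a prior count of 2 and single-symbol loci with a mean of at least 2. The 3 nearest loci are named, except 1 that is not reported here. Each list's named genes are up to 5 with the smallest p past the threshold, or 3 where none passed. The cell type markers, Axin2, Lrp5, Lrp6, Pgr, Procr, Tnfsf11 and Calca were named after their values had been seen.

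Recombined and unrecombined libraries with the same replicate number deviated together from their group means across loci (r 0.239 to 0.399, against -0.240 to -0.0345 for different numbers), which was taken as pairing, and an alternative fit had this number as a block. Wild type libraries did not meet the bar for pairing, an r over 0.1 in every pair. For number 1, r was -0.0314 with recombined and 0.00248 with unrecombined libraries, and only numbers 2 to 4 passed (r 0.109 to 0.185 and 0.157 to 0.312). For different numbers, r of wild type libraries ran from -0.147 to 0.169 with recombined and from -0.247 to 0.337 with unrecombined libraries. Other alternatives were reads of several-locus entries added, DESeq2 1.42.0, limma-voom (limma 3.58.1), other scalings and filters, only the groups compared, the library number series and each library left out. Chosen after seeing the data were recombined libraries 3 and 4 left out together, the 7 libraries with under 10 CPM of salivary transcripts, and the block with only the groups compared.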

Additional observations from a re-analysis of the deposited data

Results flagged for a closer look

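Of 21 groups of 4 libraries tested over the 7 members with enough counts, 6 held a library whose gap to the nearest other exceeded the 95% critical value of Dixon's test, where chance flags about 1 in 20 groups. For Rspo1 it was library 1 in every group, at 20.8 CPM in recombined, 19.4 CPM in unrecombined and 31.1 CPM in wild type cells, where the next highest library had 4.85, 4.48 and 5.38 CPM. Unrecombined library 4 was high for Lgr4 (72.2 CPM, next 43.2) and for Lgr6 (27.1 CPM, next 17.0). Recombined library 2 was the only recombined library with Rspo3 counts, at 0.110 CPM (3 counts, the floor), against 0 in the others, and with the others tied at 0 any nonzero count would be flagged.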

How the results depend on the processing

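Over 27 alternatives, Lgr4, Lgr5, Lgr6, Rnf43 and Znrf3 stayed higher in recombined cells in both comparisons. Of 1343 alternative values computed over all results, 1157 stayed the same, 74 lost the call, 8 gained it, 37 changed sign and 67 counts moved. For a gene, the same means its direction and side of the threshold. For a count of loci or members, it means within 1.5 times, which includes counts that stayed at 0. Where no cause is named, the cause was not tested. Recombined against wild type, 920 loci became 1617 with DESeq2, 594 with only the 2 groups compared, 609 with the replicate block in these groups, 75 in number series 23, 17 in series 24, 248 without recombined libraries 3 and 4 and 502 to 1217 with each library left out. The members called higher, 4, became 0 in series 23, 0 in series 24, 2 without recombined libraries 3 and 4 and 2 to 4 with each library left out. These series fits hold fewer libraries. Recombined against unrecombined, 733 loci became 1349 with DESeq2, 106 in series 23, 115 in series 24, 282 without recombined libraries 3 and 4 and 449 to 1044 with each library left out. The 3 members called higher became 5 with the replicate block in the 2 groups (Rnf43 and Znrf3 joined), 1 in series 23 and 0 in series 24, and DESeq2 called 1 lower (Rspo3). Unrecombined against wild type, 0 loci became 78 with DESeq2, 18 with limma-voom, 8 with only the 2 groups, 1 with the replicate block and 18 with the block in the 2 groups. The replicate block changed no other member's call, except that in the 2 groups Rnf43 lost its call against wild type cells (adjusted p = 0.0732). With only the 2 groups compared, Lgr5 lost its call against unrecombined cells (adjusted p = 0.0607, edgeR quasi-likelihood test), which left 2 members called higher.

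Among the members and Hedgehog genes, signs changed for Rspo1 and, between unrecombined and wild type cells, for Lgr4, Lgr5, Lgr6, Znrf3, Rnf43 and Smo. Recombined against wild type, Rspo1 was 0.0452 without recombined libraries 3 and 4 and -1.48 to 0.88 with each library left out. Against unrecombined cells it was -0.00448 with the replicate block and -0.97 to 1.05 with each left out. Unrecombined against wild type, Lgr4 was -0.0897 with the number series as covariate and -0.29 in series 23, Lgr5 0.72 in series 24 and 0.47 in libraries without salivary transcripts, and Lgr6 -0.13 in series 23. Znrf3 was 0.0273 with limma-voom, 0.0313 with the block in the 2 groups and 0.17 in series 24. Rnf43 was -0.0101 with upper quartile scaling, -0.12 with the covariate, -0.0815 in series 23 and -0.12 in series 24, and Smo -0.0316 in series 23. With each library left out these ranges were -0.18 to 0.20 (Lgr4), -0.56 to 0.21 (Lgr5), -0.0548 to 0.39 (Lgr6), -1.49 to 0.80 (Rspo1), -0.28 to 0.32 (Znrf3), -0.18 to 0.17 (Rnf43) and -0.0519 to 0.23 (Smo). In the 7 libraries without salivary transcripts, Lgr6 lost its call against unrecombined cells (log2 1.80, adjusted p = 0.0610, edgeR quasi-likelihood test). Depth limits Rspo2, Rspo3 and Rspo4, which lay near 3 counts in most libraries.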
